A study of Mus musculus with 5 samples.

Results

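The calcineurin-NFAT genes described here are 10 of the 29818 genes counted in a single-cell RNA sequencing experiment on the mouse growth plate, and they were chosen by symbol. They are the NFAT transcription factor genes Nfatc1, Nfatc2, Nfatc3, Nfatc4 and Nfat5, the calcineurin subunit genes Ppp3ca, Ppp3cb and Ppp3r1, and the regulator genes Rcan1 and Rcan2. All 10 had UMIs in each of the 5 pups. Cells came from the femoral and tibial growth plate cartilage of 5 C57BL/6J littermates, 2 labelled wild type (WT pups 1 and 2) and 3 labelled mutant (mutant pups 3, 4 and 5). The mutant pups carried a conditional Trpv4 p.R594H knock-in allele recombined by Col2a1-Cre, a transgene active in chondrocytes and their precursors, so that recombination depended on Cre activity in each cell. Age is given as postnatal day 5 in the sample labels and as day 3 in the description of the series. Each pup was captured as its own BD Rhapsody library, in which a unique molecular identifier (UMI) marks each captured transcript. The question of the design is how the activated calcium channel changes expression in the growth plate, and these genes encode a calcium-dependent signalling route.

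Calcineurin is a phosphatase that is switched on by calcium and calmodulin. Ppp3ca and Ppp3cb encode its catalytic subunits and Ppp3r1 its calcium-binding regulatory subunit. Active calcineurin dephosphorylates NFATc1 to NFATc4, which then enter the nucleus, where they act together with other factors. NFAT5 responds to osmotic stress and is not a calcineurin substrate of this kind. RCAN1 and RCAN2 bind calcineurin and can inhibit it, and transcription of a short form of Rcan1 is itself driven by NFAT, so that its RNA is widely used as a readout of calcineurin-NFAT activity. NFATc1 is best known in the skeleton for its role in osteoclasts. RNA levels do not show the phosphorylation or the location of an NFAT protein.

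The starts of Rcan1 are shown because the gene has both a constitutive and an NFAT-driven promoter, and the UMIs of both are summed in a gene count. The 2 stretches below are the 250 bases before each RefSeq start in GRCm38.p6, minus strand, and capitals mark the NFAT core GGAAA read on either strand (GGAAA or TTTCC).
Rcan1 upstream start, chr16:92466170-92466419: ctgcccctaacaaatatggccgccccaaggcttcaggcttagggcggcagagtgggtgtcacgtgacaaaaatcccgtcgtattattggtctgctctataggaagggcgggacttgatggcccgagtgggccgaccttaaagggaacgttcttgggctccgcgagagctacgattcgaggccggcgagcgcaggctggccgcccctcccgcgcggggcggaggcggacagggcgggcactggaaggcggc
Rcan1 intragenic start, chr16:92400079-92400328: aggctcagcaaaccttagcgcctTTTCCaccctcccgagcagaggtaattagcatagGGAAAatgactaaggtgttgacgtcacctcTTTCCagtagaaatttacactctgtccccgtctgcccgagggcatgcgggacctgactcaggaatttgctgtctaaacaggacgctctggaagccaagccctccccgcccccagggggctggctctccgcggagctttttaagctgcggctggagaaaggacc
The intragenic stretch held 3 matches and the upstream stretch 0. Of 32851 RefSeq promoter stretches of the same length, 55.6% held at least 1 match and 6.39% held 3 or more. The match is to letters only, and overlaps between matches were allowed. Entries in the RefSeq table were used for 8 of the 10 members, and Nfatc1 was not looked up. The Ppp3cb start and the start of Nfatc4 also held 3 matches each, as did 1 of the 2 starts of Nfatc2, whereas the Ppp3r1 start held 0.

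In GRCm38 (mm10, the build in the submitters' processing notes), Rcan1 lies at chr16:92391953-92470867, Rcan2 at chr17:43801351-44039516, Nfatc2 at chr2:168476410-168601657, Nfatc3 at chr8:106058840-106130537, Nfatc4 at chr14:55823144-55833943 and Nfat5 at chr8:107293470-107379517. Ppp3ca lies at chr3:136670124-136937727, Ppp3cb at chr14:20499364-20546573 and Ppp3r1 at chr11:17159263-17200375. Ppp3r1 overlaps Wdr92 on the same strand in the GENCODE annotation. Wdr92, named Dnaaf10 in the files, was counted at 5.45 to 6.99 CPM over the pups, and how reads in the shared stretch were assigned is not given in the sources used here.

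After filters 82516 of 84382 cells were kept, from 13814 to 19133 in a pup. The pups held between 117746735 and 183322632 UMIs. Median depth per cell was 9261 and 8521 UMIs for the WT pups against 6657, 6000 and 7016 UMIs for the mutant pups, so depth differed with the label. Between 3 and 7 cell barcodes were shared by any pair of libraries. Xist was detected in 89.8% and 88.4% of cells of mutant pups 3 and 4 and in at most 0.174% of cells of the other pups, whose cells held Ddx3y in 66.3% to 70.1%, so that the label and sex chromosome expression were partly confounded. Trpv4 was at 160 and 102 CPM in the WT pups and 90.3, 148 and 175 CPM in the mutant pups over all cells, with overlap, and gene counts do not show the p.R594H allele. Of 42 clusters, 35 could be named from marker genes, as 17 classes, and 19176 cells stayed unnamed. Although the cells are labelled chondrocytes, the named classes included muscle, blood, endothelial and nerve-associated cells. The class called hypertrophic here joined a cluster of 5555 cells led by Panx3 and other prehypertrophic genes and a cluster of 649 cells led by Col10a1 and Ihh. Of the 9352 cells of the class called resting, 2557 formed a cluster that passed on 4 of the 7 resting markers but was led by cell cycle genes (Prc1, Aspm and Top2a), which goes against the name, and comparisons in that class are also given without it, an alternative chosen after seeing the data. All pups contributed to every named class, but mast cells (3 in the smallest pup), Schwann cells (5) and skeletal muscle (10) were few. Levels are given as UMIs of the gene per 1000000 UMIs of the class (CPM), as mean ± SD over 5 pups. As classes were defined from expression, differences between them are descriptions without a test.

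**Figure D1:**
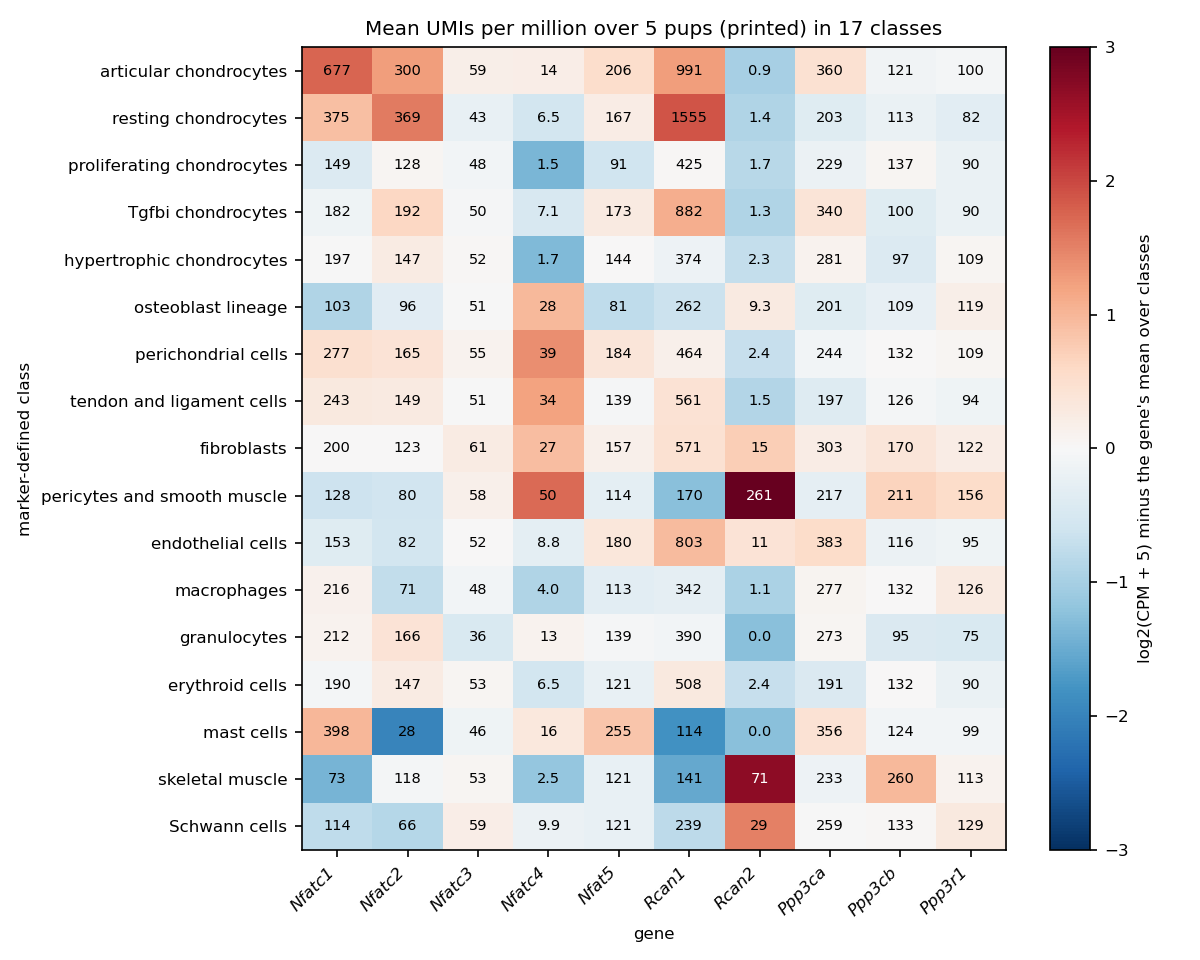
Level of the 10 genes (columns) in 17 marker-defined classes (rows). Printed values are CPM, averaged over 5 pups, and colours show log2(CPM + 5) minus the gene's mean over the classes; Rcan1 and Nfatc2 are highest in resting chondrocytes, Nfatc1 in articular chondrocytes and Rcan2 in pericytes and smooth muscle.

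UMIs of the catalytic subunit genes were counted in every class. Ppp3ca ran from 191 ± 49.9 CPM in erythroid cells to 383 ± 40.8 CPM in endothelial cells, which is 2.01-fold, and blood classes are subject to the background described with the shares of cells. Among cartilage classes it was higher in articular (360 ± 32.6 CPM), Tgfbi-expressing (340 ± 53.4 CPM) and hypertrophic chondrocytes (281 ± 23.4 CPM) than in proliferating (229 ± 8.39 CPM) and resting chondrocytes (203 ± 20.4 CPM). The 5 pups of the articular class (311 to 395 CPM) did not overlap those of the resting class (176 to 230.5 CPM). Ppp3cb was highest in skeletal muscle (260 ± 53.6 CPM) and in pericytes and smooth muscle (211 ± 21.8 CPM). It lay between 97.2 and 137 CPM in the chondrocyte classes, where the proliferating class was highest. Ppp3ca thus made up 75.9% ± 2.90 of the UMIs of the 3 catalytic genes, Ppp3cc included, in Tgfbi-expressing chondrocytes and 73.5% ± 1.81 in articular chondrocytes. It made up 49.0% ± 4.76 in pericytes and smooth muscle and 47.1% ± 5.76 in skeletal muscle. The share was not a trait of cartilage, at 75.0% ± 3.02 in endothelial cells. In resting and proliferating chondrocytes it was 62.7% ± 3.11 and 61.3% ± 1.11, and in perichondrial cells 63.7% ± 1.92. Ppp3r1, the regulatory subunit, had its highest level in pericytes and smooth muscle (156 ± 25.2 CPM) and its lowest in granulocytes (74.6 ± 15.4 CPM). Resting chondrocytes were the second lowest class (82.5 ± 7.88 CPM).

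Nfatc1 was highest in articular chondrocytes, the surface cells that form joint cartilage. The pups held 479 and 721 CPM (WT) and 718, 691 and 776 CPM (mutant), a mean of 677 ± 115 CPM. WT pup 1 was lower than the other pups. Mast cells came next by mean, but their pups ranged from 143 to 848 CPM on 323 UMIs in all. Resting chondrocytes held 375 ± 38.3 CPM, perichondrial cells 277 ± 58.6 CPM, tendon and ligament cells 243 ± 23.5 CPM and proliferating chondrocytes 149 ± 38.1 CPM. The ranges of articular and resting chondrocytes over the pups did not overlap. In macrophages Nfatc1 was at 216 ± 58.1 CPM and in osteoblast lineage cells at 103 ± 13.4 CPM. No class of osteoclasts was named.

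Among the named classes, Nfatc2 was highest in resting chondrocytes, the reserve cells of the growth plate. The WT pups held 319 and 452 CPM there, and the mutant pups 374, 347 and 350 CPM, with the WT pups on either side of the mutant pups. Articular chondrocytes followed with 300 ± 61.3 CPM and their pups overlapped those of the resting class, whereas the third class, Tgfbi-expressing chondrocytes (192 ± 21.6 CPM), lay below every articular pup. Perichondrial cells held 165 ± 41.5 CPM and proliferating chondrocytes 128 ± 47.5 CPM. Macrophages held 71.2 ± 6.43 CPM.

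Nfatc4 had the widest spread of the NFATc genes over classes and was higher in connective tissue classes than in chondrocyte classes. Its level was 49.6 ± 5.84 CPM in pericytes and smooth muscle, 39.3 ± 3.73 CPM in perichondrial cells and 34.0 ± 2.82 CPM in tendon and ligament cells. It was at 14.3 ± 2.41 CPM in articular, 6.54 ± 1.37 CPM in resting, 1.72 ± 0.359 CPM in hypertrophic and 1.52 ± 0.547 CPM in proliferating chondrocytes. The 5 perichondrial pups (35.3 to 42.9 CPM) lay above every pup of the chondrocyte classes. Nfatc3 by contrast was nearly flat, with means from 36.2 CPM in granulocytes to 61.5 CPM in fibroblasts, a 1.70-fold range. In granulocytes it was at 112 CPM at the lower clustering resolution and at 110 CPM without the upper limit of genes. Nfat5, the osmotic stress factor, was at 206 ± 27.4 CPM in articular and 184 ± 20.7 CPM in perichondrial cells and at 91.5 ± 12.0 CPM in proliferating chondrocytes.

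Among the named classes, Rcan1 was highest in resting chondrocytes. Its levels there were 1237 and 1332 CPM in the WT pups and 1482, 1648 and 2077 CPM in the mutant pups, so that every mutant pup was above both WT pups. Articular chondrocytes followed with 991 ± 227 CPM, Tgfbi-expressing chondrocytes with 882 ± 68.9 CPM and endothelial cells with 803 ± 234 CPM. The levels were lower in tendon and ligament cells (561 ± 126 CPM), perichondrial cells (464 ± 39.1 CPM), proliferating chondrocytes (425 ± 70.9 CPM), hypertrophic chondrocytes (374 ± 88.1 CPM) and pericytes and smooth muscle (170 ± 48.2 CPM). The order of the means was therefore resting, articular and Tgfbi-expressing before proliferating and hypertrophic cells, although the resting and articular pups overlapped in range. The share of UMIs from 19 immediate-early and heat shock genes that respond to tissue dissociation was 2.77% ± 0.428 in Tgfbi-expressing chondrocytes, 2.52% ± 0.398 in perichondrial cells, 1.83% ± 0.396 in resting chondrocytes and 1.00% ± 0.215 in the articular class. Its part in the levels of Rcan1 was not tested.

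Rcan2 had its highest levels in mural and muscle cells. Pericytes and smooth muscle held 261 ± 117 CPM (99.3 to 395 CPM over the pups) and skeletal muscle 71.4 ± 15.6 CPM, without overlap between them. Schwann cells held 28.8 ± 24.4 CPM and fibroblasts 15.0 ± 4.77 CPM. The 5 chondrocyte classes had means of 0.937 to 2.26 CPM, and no Rcan2 UMI was counted in granulocytes and mast cells.

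**Figure D2:**
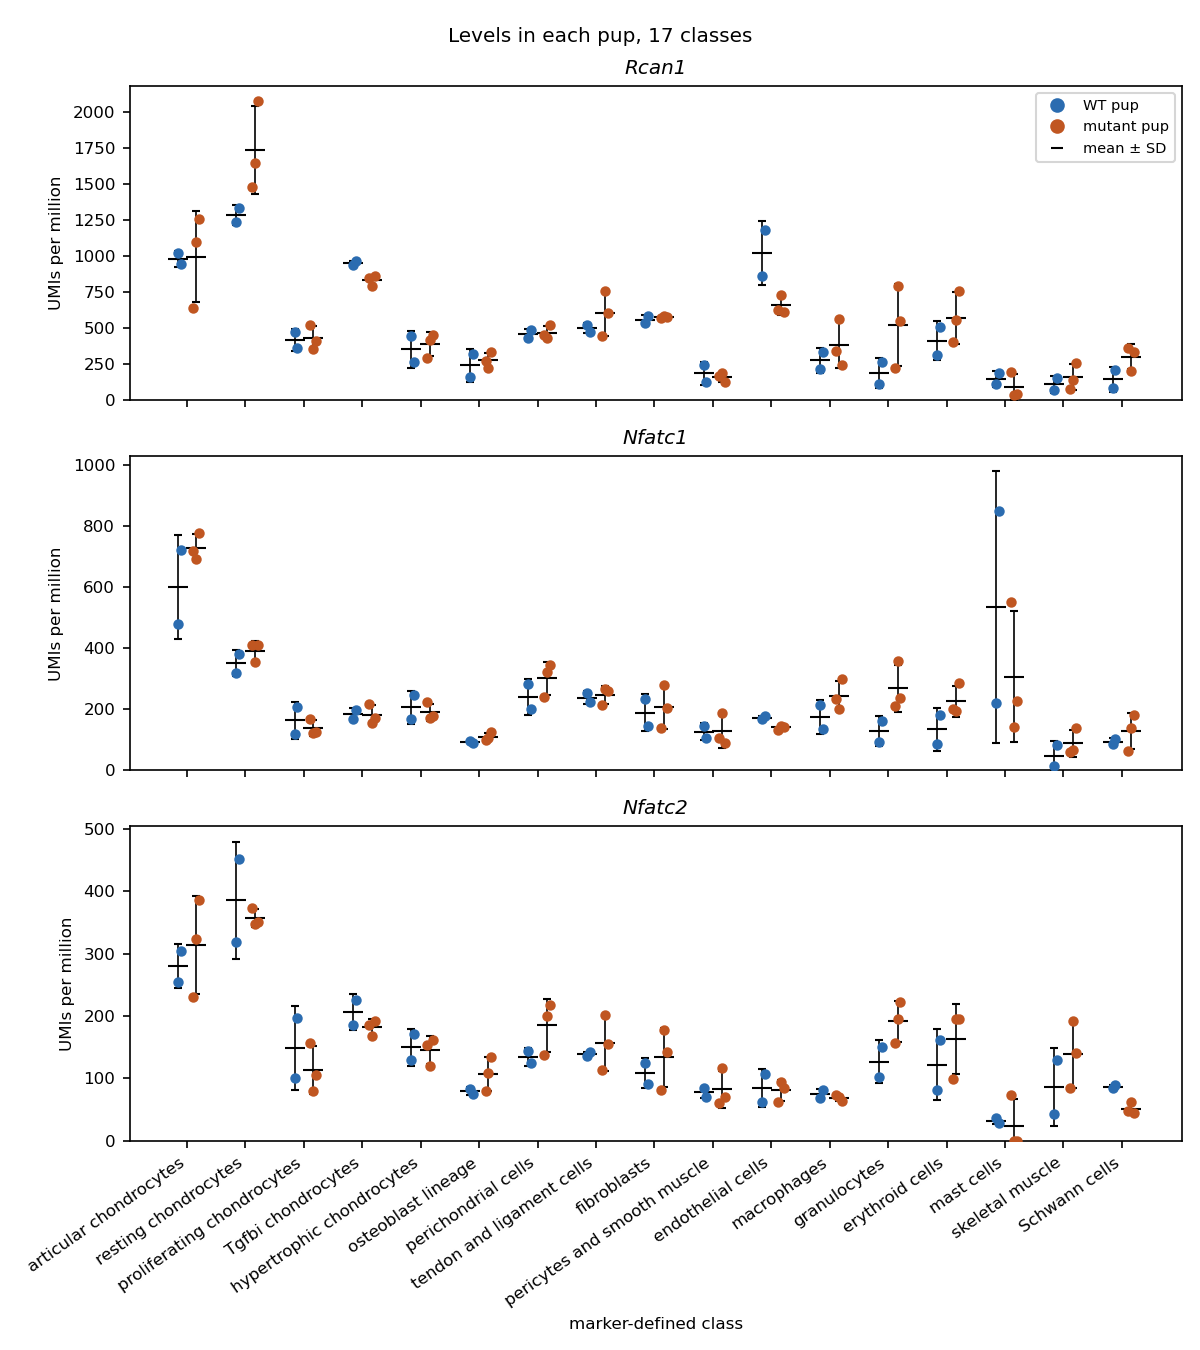
Level of Rcan1, Nfatc1 and Nfatc2 (CPM, linear axis from 0) in each pup (points, WT blue, mutant orange) in 17 classes, with the mean ± SD of each label (black). The lowest pup for Rcan1 in resting chondrocytes lies at 1237, and the mutant pups lie above the WT pups there.

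The neighbours in each order of classes mostly did not differ beyond the spread over pups. Of 16 neighbouring pairs for each gene, the ranges failed to overlap in 1 pair for Nfatc2 and Rcan1 and in 2 pairs for Rcan2 and Ppp3cb, and they overlapped in all pairs for Nfatc1, Nfatc3, Nfatc4, Nfat5, Ppp3ca and Ppp3r1. For Rcan1 the gap stood between endothelial cells and fibroblasts. For Ppp3cb gaps stood on both sides of fibroblasts, below pericytes and smooth muscle and above proliferating chondrocytes.

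Cluster levels are pooled over the cells of all pups, unlike the class levels, which are means over pups. Within the classes, clusters differed in Rcan1 more than the class means show. The 6 resting clusters ran from 621 CPM to 2640 CPM, the highest being led by the metallothionein genes Mt1 and Mt2. The 3 perichondrial clusters held 469 CPM (led by Podn, Ltbp2 and heat shock genes), 789 CPM (led by Dpt and Col6a6) and 143 CPM (led by Igfbp3 and Col8a1), and the mean of that class was 209, 257 and 273 CPM when cells were clustered at a lower resolution, at a higher resolution or without the upper limit of genes. Nfatc1 was at 429 CPM in the first of these clusters and at 186 and 183 CPM in the other two. In the whole class it was at 163 CPM at the lower resolution. In the Panx3-led cluster of the hypertrophic class Nfatc1 was at 181 CPM and in the Col10a1-led cluster at 337 CPM, whereas Rcan1 was at 376 and 276 CPM. Over the 35 clusters of at least 500 cells, log2 levels of Nfatc2 and Rcan1 had a Pearson r of 0.80, those of Nfatc1 and Nfatc2 of 0.79 and those of Nfatc1 and Rcan1 of 0.64. Nfatc2 and Ppp3r1 had r = -0.60 and Rcan1 and Ppp3r1 r = -0.57. These are descriptions, since clusters share the 5 libraries and differ in depth.

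The genes whose pattern over the 17 classes was most like each member, among 6605 genes at a mean of 20 CPM or more, were found by the Pearson r of log2(CPM + 5). Tagln (0.96), Itga7 (0.93) and Uba2 (0.92) were nearest to Rcan2. Lhfp (0.95), Adamts2 (0.89) and Pdgfrb (0.89) were nearest to Nfatc4. Crispld1 (0.93), Tceal3 (0.93) and Fndc3b (0.93) were nearest to Nfatc2, Emp1 (0.84), Synpo (0.84) and Rnf144b (0.82) to Rcan1, and Lemd3 (0.79), Rbp4 (0.76) and Shisa2 (0.76) to Nfatc1. For Ppp3r1 the nearest were Epb41l2 (0.90), Acadm (0.88) and Ech1 (0.88), and for Ppp3cb they were Emsy (0.87), Smc6 (0.85) and Dmpk (0.85). Nfatc3 was nearest to Poglut3 (0.85), Npepl1 (0.82) and Cyhr1 (0.82). For Nfat5 they were Erg (0.83), Lysmd3 (0.79) and Itpkb (0.78), and Ppp3ca had the least close neighbours in Gabarapl1 (0.73), Tgoln1 (0.71) and Pdcd6ip (0.71).

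Shares of cells with a UMI were compared after each cell was drawn down to 3000 UMIs, which left out 99 resting, 538 articular, 649 perichondrial and 24 erythroid cells that held fewer. Rcan1 was then found in 80.1% ± 3.56 of resting chondrocytes, 73.6% ± 7.33 of articular chondrocytes and 42.6% ± 1.05 of perichondrial cells, against 90.3%, 81.5% and 53.4% at full depth, where the median cells held 8884, 5349.5 and 5771 UMIs. Erythroid cells were taken as a comparison class for background. Whether they express some of these genes themselves was not tested. They had Rcan1 UMIs in 44.4% ± 13.7 of cells after thinning, Nfatc1 in 30.3% and Nfatc2 in 26.2% (median depth 7216 UMIs). At full depth these shares were 56.8%, 46.6% and 40.8%. Their share of UMIs from 16 cartilage matrix genes was 6.58% ± 2.28, against 17.5% ± 1.32 in resting chondrocytes, 1.85% ± 0.947 in perichondrial cells and 1.40% ± 0.759 in endothelial cells, so that erythroid cells held the highest share of any class other than chondrocytes. In skeletal muscle, with a share of 1.08%, Rcan1 was found in 24.9% ± 7.82 of cells after thinning and in 37.9% at full depth (median depth 5274.5 UMIs). Among the chondrocyte, perichondrial and tendon and ligament classes, several thinned shares lay within 1 SD of the erythroid mean. For Rcan1 these were perichondrial cells, hypertrophic (48.6%) and proliferating chondrocytes (53.0%) and tendon and ligament cells (50.7%). For Nfatc1, with an erythroid SD of 7.96, they were proliferating (32.3%), Tgfbi-expressing (35.2%) and hypertrophic chondrocytes (37.2%). For Nfatc2, with an erythroid SD of 8.68, they were proliferating (27.8%) and hypertrophic chondrocytes (31.4%), tendon and ligament cells (28.6%) and perichondrial cells (29.4%, and 43.3% at full depth). Shares of Nfatc3, Ppp3cb, Ppp3r1 and Rcan2 lay within 1 SD of the erythroid mean in all 7 of these classes. That of Nfat5 did so in proliferating chondrocytes and in tendon and ligament cells. That of Ppp3ca did so in resting and proliferating chondrocytes, perichondrial cells and tendon and ligament cells. For Nfatc4, with an erythroid SD of 0.890, resting (1.98%) and Tgfbi-expressing chondrocytes (2.35%) did. These shares are not told apart from those of erythroid cells. This comparison cannot separate background from expression there. Erythroid cells may express these genes, and they held more cartilage matrix RNA than perichondrial cells and tendon and ligament cells. A share near theirs therefore does not place a class at background. Levels of these genes in blood classes are not read as expression. For Ppp3cb, erythroid cells held 132 ± 32.5 CPM, against 113 ± 5.85 CPM in resting and 97.2 ± 5.39 CPM in hypertrophic chondrocytes. Nfatc4 was found in 14.5% of pericytes and smooth muscle cells, 1.94% of erythroid cells and 0.558% of hypertrophic chondrocytes after thinning, and at full depth in 31.1%, 4.99% and 3.33%. Rcan2 was found in 37.3% of pericytes and smooth muscle cells, 0.671% of erythroid cells and 0.262% of articular chondrocytes, and at full depth in 49.998%, 1.93% and 0.506%.

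The labels were compared on UMIs summed per pup over all kept cells and within 6 classes with edgeR's quasi-likelihood test. No member passed an adjusted p of 0.05 in any of the 7 comparisons, and neither did any of the 12437 to 21024 genes tested in each (0%). At an unadjusted p under 0.05 there were 1169 genes in all cells, 821 in articular, 1116 in resting, 1108 in proliferating and 466 in hypertrophic chondrocytes, 899 in perichondrial cells and 455 in tendon and ligament cells. DESeq2 called 48, 1, 51, 25, 7, 28 and 0 genes in the same order and no member. All 10 members passed the filter on low counts in each comparison. Levels in these comparisons are CPM with TMM scaling. The number of members whose WT and mutant pups did not overlap was 4 in all cells, where 22.5% of all genes tested did not overlap, 4 in articular (23.9%), 4 in resting (25.2%), 3 in proliferating (25.6%) and 1 in hypertrophic chondrocytes (17.7%), 2 in perichondrial cells (25.2%) and 3 in tendon and ligament cells (20.7%). All but Nfat5 in proliferating chondrocytes were higher in the mutant pups, where 10.1%, 11.3%, 12.1%, 11.9%, 7.52%, 11.6% and 9.62% of all genes tested were higher without overlap, in the same order. With RLE scaling these counts were the same except in proliferating chondrocytes, where 2 members did not overlap. They changed when neither scaling was applied. In plain CPM over the 6 classes, Ppp3r1 was higher without overlap in 6 classes and Rcan1, Ppp3ca and Ppp3cb in 1 each, while Nfatc4 was lower in 2 and Nfatc3 and Nfat5 in 1 each. Of genes at 20 CPM or more in each of these classes, the mean share of classes without overlap in plain CPM was 9.74% higher and 14.9% lower. The counts of members without overlap also changed with the pups and cells used, and so did the share of all genes. Without mutant pup 3 there were 8 over all cells (42.4% of all genes tested) and 8 in tendon and ligament cells (39.3%). In resting chondrocytes there were 8 without WT pup 1 (50.9% of all genes tested), 2 without the upper limit of genes (27.1%) and 3 without the cell cycle cluster (26.6%). The median log2 fold change of the members lay between 0.06 and 0.18, and that of all genes tested between -0.02 and 0.00. With the same pups in every class, the 7 comparisons are not independent.

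Ppp3r1 was the member with the steadiest difference. In perichondrial cells its levels were 95.8 and 90.8 CPM in the WT pups and 115, 134 and 113 CPM in the mutant pups, a log2 fold change of 0.37 ± 0.11 (SE, n = 2 and 3, edgeR adjusted p = 0.755). In resting chondrocytes they were 77.4 and 68.9 CPM against 83.4, 98.1 and 86.5 CPM (0.29 ± 0.12, edgeR adjusted p = 0.638). In tendon and ligament cells they were 83.8 and 80.9 CPM against 95.3, 122 and 92.7 CPM (0.33 ± 0.14, edgeR adjusted p = 0.961). Over all cells the difference was 0.33 ± 0.12 (edgeR adjusted p = 0.841). Every mutant pup lay above both WT pups in each of the 6 classes and in all cells, and the fold changes of the classes ran from 0.23 to 0.37 on the log2 scale. The same held in plain CPM, without TMM scaling, in 6 of 6 classes. Among classes without a test, Ppp3r1 was also higher in each mutant pup in macrophages (108 and 117 CPM against 128, 140 and 136 CPM). So it was in endothelial cells (90.1 and 77.8 CPM against 110, 100 and 95.7 CPM), erythroid cells, Tgfbi-expressing chondrocytes, osteoblast lineage cells and fibroblasts. The labels overlapped in pericytes and smooth muscle, granulocytes, mast cells, skeletal muscle and Schwann cells. Of 4169 genes at 20 CPM or more in every tested class, 13 (0.312%) were higher in all mutant pups in all 6 classes and 53 (1.27%) were lower. Over 28 clusters with at least 50 cells in each pup, Ppp3r1 was higher in every mutant pup in 20. Of 3325 genes at 20 CPM or more in all of them, 16 (0.481%) were higher in at least 20. In the lower direction 57 (1.71%) reached that number. The cut of 20 was taken from Ppp3r1 itself and the clusters share the 5 pups, so these shares are descriptions. Mutant pup 4 was the highest pup in each of the 7 sums, and without it the log2 fold changes ran from 0.17 to 0.29. With Xist status as a term they ran from 0.13 to 0.28. Dnaaf10 (Wdr92) was at 6.99 and 6.81 CPM in the WT pups and 6.75, 6.23 and 5.45 CPM in the mutant pups over all cells, lower in each mutant pup, as in perichondrial cells (5.61 and 7.01 CPM against 5.02, 4.54 and 4.32 CPM), whereas in proliferating chondrocytes it was at 9.20 and 8.46 CPM against 9.98, 11.2 and 9.26 CPM, higher in each mutant pup, and in resting and articular chondrocytes the labels overlapped.

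**Figure D3:**
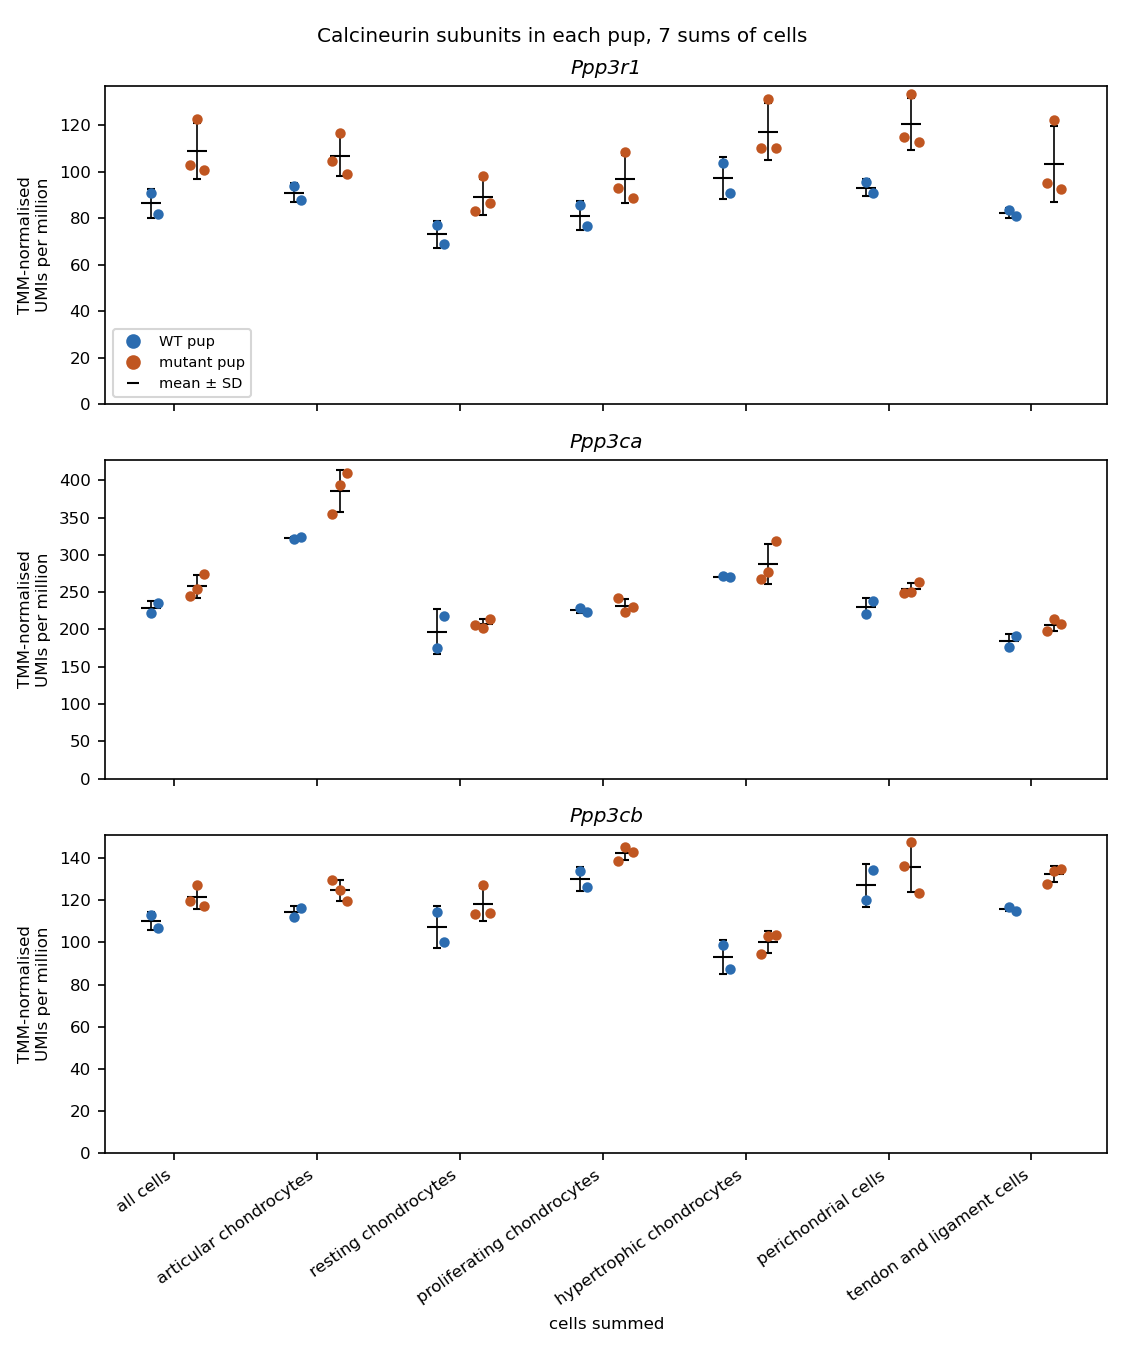
TMM-normalised CPM of the calcineurin subunit genes Ppp3r1, Ppp3ca and Ppp3cb (linear axes from 0) in each pup for all cells and 6 classes, with the mean ± SD of each label (black). The 3 mutant pups lie above the 2 WT pups for Ppp3r1 in every column.

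Ppp3ca in articular chondrocytes was at 321 and 324 CPM in the WT pups and 355, 393 and 410 CPM in the mutant pups (0.26 ± 0.11, edgeR adjusted p = 0.792). The mutant pups were also above the WT pups in perichondrial cells and in tendon and ligament cells, and overlapped them in resting, proliferating and hypertrophic chondrocytes. Ppp3cb did not overlap in articular and proliferating chondrocytes and in tendon and ligament cells. The fold changes of both were above 0 in 6 of 6 classes, from 0.04 to 0.26 for Ppp3ca and from 0.10 to 0.19 for Ppp3cb on the log2 scale. In plain CPM each was without overlap in only 1 class.

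Nfatc1 in articular chondrocytes was at 496 and 675 CPM in the WT pups and at 678, 734 and 805 CPM in the mutant pups (0.34 ± 0.14, edgeR adjusted p = 0.792). The gap between the higher WT pup and the lowest mutant pup was small, and without WT pup 1 the value was 0.13. In plain CPM the labels overlapped in this class. Over all cells the levels were 260 and 266 CPM against 288, 328 and 359 CPM (0.30 ± 0.12, edgeR adjusted p = 0.841). In perichondrial cells Nfatc1 was at 276 and 192 CPM in the WT pups and at 243, 339 and 341 CPM in the mutant pups. Mutant pup 3 lay between the WT pups, and the log2 fold change of 0.39 ± 0.21 did not pass (edgeR adjusted p = 0.758). It was 0.69 without WT pup 1 and 0.16 without WT pup 2. Cartilage matrix genes made up 2.05% and 1.14% of perichondrial UMIs in the WT pups and 0.953%, 1.75% and 3.34% in the mutant pups. The part of that share in the difference of Nfatc1 was not tested. In resting chondrocytes the levels of Nfatc1 were 319 and 362 CPM against 400, 372 and 426 CPM (0.23 ± 0.12, edgeR adjusted p = 0.696). The value was 0.14 without WT pup 1 and 0.09 at the higher clustering resolution. Without the cell cycle cluster it was 0.16 and the labels overlapped, as they did in plain CPM.

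Nfatc2 had its largest positive fold change in perichondrial cells. The WT pups held 141 and 120 CPM, and the mutant pups 139, 212 and 216 CPM. Mutant pup 3 lay within the WT range and the other mutant pups above it (0.54 ± 0.21, edgeR adjusted p = 0.755). The thinned share of these cells with a UMI was 29.4% ± 4.83, near that of erythroid cells (26.2% ± 8.68). In fibroblasts it was 25.2% and in granulocytes 26.2%. It was lower in skeletal muscle (19.8%), endothelial cells (18.6%), pericytes and smooth muscle (16.5%) and macrophages (15.7%). Cartilage matrix genes made up 6.58% of erythroid and 1.85% of perichondrial UMIs. The part of background in this level was not tested. Nfatc2 in perichondrial cells was the only case in which a member passed under an alternative. Without the filter on low counts the edgeR adjusted p was 0.0106, with 129 of 24542 genes tested called in that fit. In resting chondrocytes, where Nfatc2 was highest of the named classes, the levels were 319 and 428 CPM against 365, 365 and 364 CPM (-0.03 ± 0.14, edgeR adjusted p = 0.968). Without the cell cycle cluster the sign changed, at 0.02 ± 0.16 (edgeR adjusted p = 0.983).

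Rcan1 in resting chondrocytes was at 1235 and 1261 CPM in the WT pups and at 1448, 1731 and 2157 CPM in the mutant pups, 42.5% higher by the fit (0.51 ± 0.17, edgeR adjusted p = 0.585). The labels did not overlap. Of the resting clusters, the metallothionein-led one held 1972 and 2339 CPM (plain) in the WT pups and 2672, 2455 and 3459 CPM in the mutant pups, and the one led by Chil1 and A2m held 1330 and 1547 CPM against 1801, 1942 and 2308 CPM. In the cluster led by cell cycle genes the labels overlapped, at 993 and 795 CPM against 781, 1056 and 1116 CPM. Without that cluster the class was at 1322 and 1446 CPM in the WT pups and 1840, 2185 and 2442 CPM in the mutant pups, again without overlap (0.64 ± 0.14, edgeR adjusted p = 0.241). The labels also overlapped in the clusters led by Cxcl10 and by Gm16070. In the cluster led by Arc, which held only 4 cells of mutant pup 4, the levels were 904 and 993 CPM against 860, 228 and 652 CPM, lower in each mutant pup. The dissociation list made up 2.20% and 2.10% of resting UMIs in the WT pups and 1.28%, 1.56% and 2.01% in the mutant pups, and was thus lower in each mutant pup; its part in the difference of Rcan1 was not tested. In perichondrial cells Rcan1 was at 422 and 468 CPM against 457, 456 and 517 CPM, with overlap (0.10 ± 0.11, edgeR adjusted p = 0.855). This value depended on the clustering, at 0.48 both at the lower and at the higher resolution (edgeR adjusted p = 0.553 and 0.697), where 5 of the 10 members were without overlap in perichondrial cells, against 27.7% and 26.6% of all genes tested. In articular chondrocytes the mutant pups held 607, 1163 and 1300.2 CPM, on both sides of the WT pups at 1057 and 883 CPM. Some classes without a test went the other way in plain CPM. Tgfbi-expressing chondrocytes held Rcan1 at 939 and 964 CPM (WT) against 847, 796 and 865 CPM (mutant). Endothelial cells, with 37 in the smallest pup, held 864 and 1180 CPM against 626, 733 and 613 CPM. The labels overlapped in the other classes without a test.

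The remaining members showed small or unsteady differences. Nfat5 in proliferating chondrocytes was at 91.5 and 109 CPM in the WT pups and 84.6, 82.1 and 91.3 CPM in the mutant pups, the only case with TMM scaling of a member lower in every mutant pup of a tested class. In plain CPM this also held for Nfatc4 in perichondrial cells (42.9 and 42.5 CPM against 40.5, 35.4 and 35.3 CPM) and in tendon and ligament cells (37.5 and 35.6 CPM against 34.0, 32.9 and 30.0 CPM), and for Nfatc3 in tendon and ligament cells. Over the 28 clusters with at least 50 cells in each pup, Nfatc4 was lower in every mutant pup in 7 and higher in 0. Nfatc3 was lower in 5 and higher in 1, Nfat5 lower in 2 and higher in 0, and Rcan2 lower in 4 and higher in 2. Ppp3ca and Ppp3cb were each higher in 8 and lower in 0. Nfatc1 and Rcan1 were each higher in 6 and lower in 1, and Nfatc2 was higher in 2 and lower in 1. Genes at 20 CPM or more in all these clusters were lower in a median of 2 and higher in a median of 1. Nfatc4 was not at that level, with 1.00 to 62.1 CPM and a median of 10.8 CPM over the 42 clusters. Those genes are therefore not of like level to it. Nfatc3 had fold changes from -0.06 to 0.10 on the log2 scale over the 6 classes, and Nfatc4 from -0.20 to 0.20. With TMM scaling Nfatc3 was higher in each mutant pup in resting chondrocytes (41.34 and 41.33 CPM against 42.4, 46.2 and 43.7 CPM). In plain CPM the labels overlapped there. Rcan2 was tested at 0.677 to 3.32 CPM in the 6 classes, and its fold changes ran from -0.73 to 0.45 on the log2 scale.

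**Figure D4:**
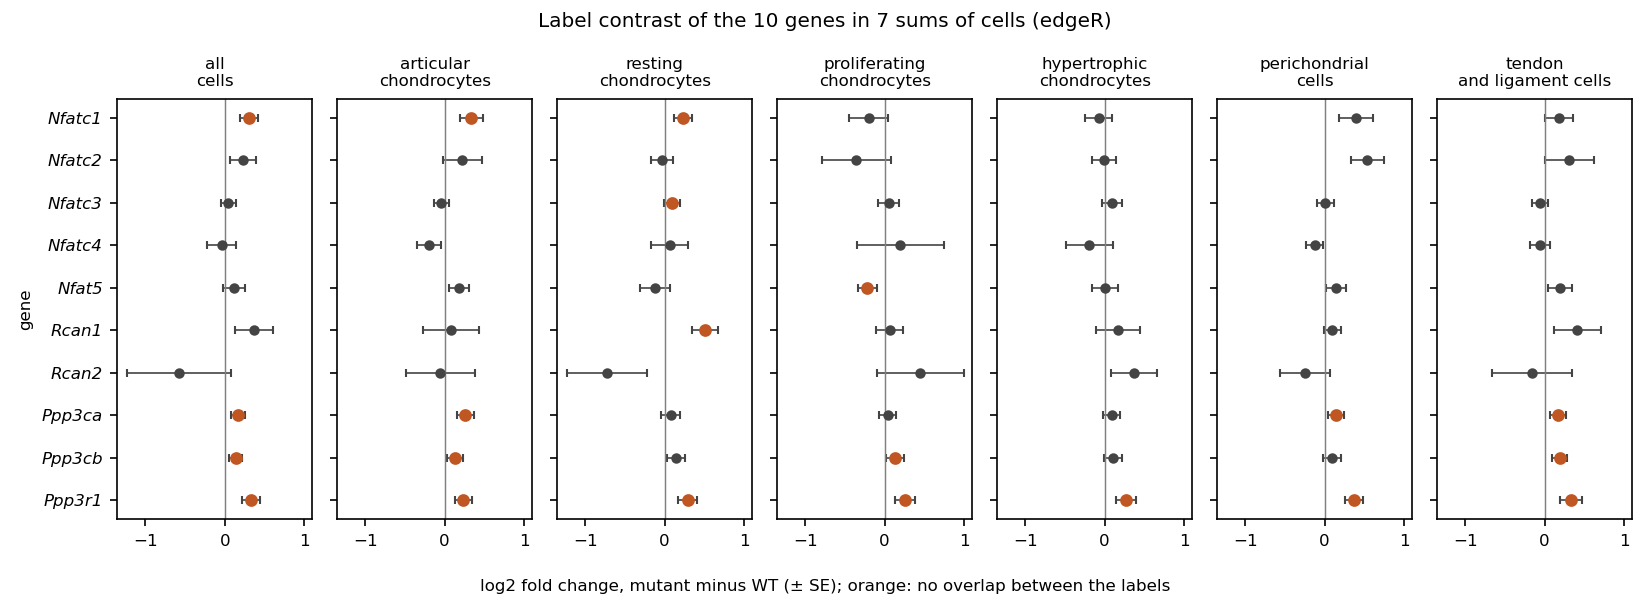
Log2 fold changes, mutant minus WT, of the 10 genes (rows) with their standard errors (bars) in all cells and 6 classes (panels); orange points mark genes whose WT and mutant pups do not overlap. Ppp3r1 lies between 0.23 and 0.37 in every panel. The bars are wide for Rcan2, also over all cells, where its pups ran from 2.51 to 10.0 CPM.

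Whether the label difference varied between the 6 classes was tested in a fit with pups as blocks. Of 15453 genes tested 0 passed (0%), with 763 at an unadjusted p under 0.05, and no member passed. Nfat5 had the smallest adjusted p of the members (0.938), and those of the other members were 1.00 when rounded. The higher Rcan1 in resting chondrocytes and Nfatc2 in perichondrial cells was therefore not shown to be particular to those classes.

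Other genes of the route gave no call. The list of calmodulin and the remaining calcineurin subunits (5 genes), the list of inhibitors and scaffolds (8), the NFAT kinases that return NFAT to the cytoplasm (9) and the NFAT targets (16) had 0 genes past the threshold in each of the 7 comparisons. Among the kinases, the mutant pups lay above the WT pups without overlap in 5 of 9 genes over all cells (and below them in 1, Mapk9), 2 in articular, 4 in resting, 0 in proliferating and 2 in hypertrophic chondrocytes, 4 in perichondrial cells and 5 in tendon and ligament cells, where the shares of all genes tested were those given above. They lay below in 2 in proliferating chondrocytes and in 1 in resting chondrocytes. The median log2 fold change over the list ran from -0.06 in proliferating chondrocytes to 0.14 in tendon and ligament cells. Mapk8, Ptgs2, Acp5, Cabin1 and Chp1 are named here after their values were seen. Mapk8, the gene of the kinase JNK1, was at 30.5 and 32.9 CPM in the WT pups and 36.4, 38.1 and 35.9 CPM in the mutant pups over all cells (0.21 ± 0.08, edgeR adjusted p = 0.841). Of the targets, 12 were tested over all cells and 6 or 7 in a class. Only 1 was without overlap over all cells (Ptgs2, against 22.5% of all genes tested) and 1 in perichondrial cells (Acp5, against 25.2%). No target was without overlap in the other classes. The median log2 fold change of the targets ran from -0.07 in articular to 0.29 in proliferating chondrocytes. Ptgs2, the cyclooxygenase gene, was at 52.9 and 59.2 CPM against 61.6, 67.4 and 72.0 CPM over all cells (0.26 ± 0.10, edgeR adjusted p = 0.841). Acp5, an osteoclast gene induced by NFATc1, was at 0.303 to 3.51 CPM in the 6 of 7 sums in which it was tested, and was higher in each mutant pup in perichondrial cells (0.48 ± 0.26, edgeR adjusted p = 0.758). Calm2, a calmodulin gene, was at 478 and 449 CPM in the WT pups and 477, 559 and 501 CPM in the mutant pups over all cells, with overlapping labels. Cabin1, which encodes a calcineurin inhibitor, was lower in each mutant pup in all cells (-0.20), resting chondrocytes (-0.20) and perichondrial cells (-0.28) on the log2 scale, with edgeR adjusted p of 0.841, 0.748 and 0.756. Chp1, of the same list, was higher in each mutant pup in all cells, articular chondrocytes and tendon and ligament cells. No other gene of that list was without overlap. The median log2 fold change of the list ran from -0.01 in resting to 0.11 in proliferating chondrocytes.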

How the data were processed

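The authors prepared 1 BD Rhapsody library per pup and deposited UMI counts per gene and cell barcode, quantified in a commercial cloud pipeline on mm10 (the build in the submitters' processing notes); its version and annotation are not given in the sources used here. Barcodes were kept with 200 to 6000 genes and at most 10% mitochondrial UMIs. No doublet caller was run beyond the upper limit of genes. Cells were clustered in scanpy 1.11.5 (Pearson residuals of 3000 variable genes, 50 components, 20 neighbours, Leiden resolution 1.5) and clusters were named from marker lists. Counts were summed per pup and class and tested in edgeR 4.0.16 (filterByExpr, TMM, quasi-likelihood test, Benjamini-Hochberg adjustment over all genes tested, threshold 0.05), and with DESeq2 1.42.0 in R 4.3.3 as an alternative. The edgeR procedure was tested on simulated data. The changes planted there were larger than the fold changes of the members. The simulation therefore does not show whether differences of the size seen here would be found. Pups are littermates, and p-values measure the spread between these 5 pups. Alternatives were RLE scaling, no count filter, Xist status as a term, other clusterings, no upper limit of genes, leaving out each pup and, added after seeing the data, the resting class without its cluster led by cell cycle genes. The members, lists and tests were chosen with earlier results of these data known. Fold changes with error and adjusted p are given for members at an unadjusted p under 0.05, and for Nfatc1, Nfatc2 and Rcan1 in perichondrial and resting cells, and for each member the 3 genes of most like pattern are named.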

Additional observations from a re-analysis of the deposited data

How the results depend on the processing

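The limits lie in the number of pups (2 and 3), in depth and sex chromosome expression that differed with the label, and in class boundaries. No paired analysis was possible because no replicate number is shared between the labels. The count of members called was 0 under every alternative except in perichondrial cells without the filter on low counts. There it was 1 (Nfatc2, adjusted p = 0.0106 in edgeR), with 129 of 24542 genes tested called. The cause was not tested. Of 156 fold changes recomputed under alternatives, 4 changed sign, all of Nfatc2 in resting chondrocytes: 0.018 at resolution 0.8, 0.028 without the upper limit of genes, 0.016 without the cell cycle cluster (chosen after seeing the data) and 0.20 without WT pup 2; the cause was not tested. Leaving out each pup in turn gave log2 fold changes of 0.35 to 0.64 for Rcan1 and -0.23 to 0.20 for Nfatc2 in resting chondrocytes, 0.43 to 0.71 for Nfatc2, 0.16 to 0.69 for Nfatc1 and 0.29 to 0.42 for Ppp3r1 in perichondrial cells, and 0.13 to 0.58 for Nfatc1 in articular chondrocytes. Other choices moved values by over 1.5 times: Xist status as a term gave 0.79 for Rcan1 in resting chondrocytes, 0.22 for Rcan1 in perichondrial cells and for Ppp3r1 over all cells and 0.17 for Ppp3r1 in tendon and ligament cells; resolution 2.5 gave 0.09 for Nfatc1 and -0.09 for Nfatc2 in resting chondrocytes; and clustering without the upper limit of genes gave 0.15 for Nfatc1 in resting chondrocytes and 0.23 for Nfatc1, 0.35 for Nfatc2 and 0.22 for Rcan1 in perichondrial cells. Rcan1 in perichondrial cells was at 0.48 at resolutions 0.8 and 2.5, and leaving out each pup gave 0.04 to 0.18. Members without overlap there numbered 5 at both resolutions in place of 2, with 27.7% and 26.6% of all genes. When each pup was left out, members without overlap ran from 4 to 8 over all cells (27.9% to 50.6% of all genes), 5 to 7 in articular (32.2% to 53.9%), 4 to 8 in resting (32.7% to 50.9%), 3 to 7 in proliferating (32.5% to 59.6%) and 1 to 5 in hypertrophic chondrocytes (24.4% to 46.2%), 2 to 7 in perichondrial cells (31.9% to 54.4%) and 3 to 8 in tendon and ligament cells (32.3% to 44.3%). Without the upper limit of genes they numbered 1 in proliferating (20.3%), 2 in resting (27.1%) and 2 in hypertrophic chondrocytes (16.9%) and 5 in tendon and ligament cells (21.3%). Genes called over the 7 comparisons (6 at other resolutions, which have no fit over all cells) ran from 0 to 51 with DESeq2, 0 to 152 without the count filter, 0 to 12 at resolution 0.8, 0 to 2 without the upper limit of genes, 0 to 128 without WT pup 1, 1 to 36 without WT pup 2, 0 to 2 without mutant pup 3 and 5 to 16 without mutant pup 5, and were 0 with RLE scaling, with Xist status as a term, at resolution 2.5, without mutant pup 4 and in resting chondrocytes without the cell cycle cluster. Of the levels by class, 87 moved by more than the spread over pups when cells were clustered or classed otherwise, among them Rcan1 in the osteoblast lineage (262 to 129 CPM at resolution 0.8) and Nfatc3 in granulocytes (36.2 to 112 CPM at resolution 0.8).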

Other observations

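The 7 unnamed clusters hold part of the signal of these genes. The largest, of 5694 cells led by Matn4 and Sfrp1, held Rcan1 at 1651 CPM, Nfatc1 at 561 CPM and Nfatc2 at 466 CPM. For Rcan1 and Nfatc2 these pooled levels were above the means of the resting class (1555 and 369 CPM). This cluster is outside the order of the named classes. The Rcan1 levels of this cluster were 1391 and 1580 CPM in the WT pups and 1245, 1581 and 2291 CPM in the mutant pups, with overlap. Clusters of 2599 cells led by Ucma and Cxcl14 and of 3968 cells led by Lgr6 and Grem1 held Rcan1 at 1179 and 800.4 CPM. Both were higher in each mutant pup. The Ucma-led cluster held 1021 and 1112 CPM (WT) against 1128, 1474 and 1439 CPM (mutant). The Lgr6-led cluster held 718 and 669 CPM against 832, 850 and 997 CPM. In a cluster of 339 cells led by the myeloid genes Mpo and Prtn3, Nfatc3 was at 149 CPM, its highest level over the 42 clusters, and Rcan1 at 107 CPM. In a resting cluster of 118 cells led by long noncoding and neuronal genes, Nfatc2 was at 842 CPM and Nfat5 at 619 CPM, the highest levels of both over the 42 clusters.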
